A study of Homo sapiens with 12 samples.

Results

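The transcripts described here are 10 genes of the endoplasmic reticulum (ER) chaperone system and the unfolded protein response: HSPA5, HSP90B1, CALR, SDF2L1, DNAJB9, PDIA4, CRELD2, HERPUD1, XBP1 and ATF6. They were chosen by symbol for their known roles, among 58735 genes counted, and each symbol matched 1 gene identifier. Earlier results of these data were known when they were chosen, so counts over the 10 are descriptions of a chosen set. Cultures of HEC-1A (HEC1A in the labels) and of T-HESC (THESC) received AG-205 at 15 µM, or its vehicle DMSO, and were harvested at 32 h for sequencing of polyA RNA, which gave 4 groups of 3 libraries. HEC-1A is an epithelial cell line from an endometrial adenocarcinoma, T-HESC is an endometrial stromal cell line immortalised with telomerase, and AG-205 is a small molecule sold as an inhibitor of the haem-binding membrane protein PGRMC1. The RNA came from 3 independent culture experiments of each line, so n = 3 stands for cultures of 1 line and not for donors. In libraries from bulk cultures, fewer cells of a kind and less RNA per cell cannot be told apart.

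The ER is where secreted and membrane proteins fold. When unfolded proteins accumulate in its lumen they draw the chaperone BiP, the product of HSPA5, away from the stress sensors IRE1, PERK and ATF6, and the sensors become active. IRE1 splices the XBP1 mRNA so that it encodes an active transcription factor, ATF6 travels to the Golgi, where the site-1 and site-2 proteases release its cytosolic part as a transcription factor, and PERK phosphorylates eIF2α, which lowers translation and favours that of ATF4. XBP1 and ATF6 then raise transcription of chaperones, folding enzymes and components of ER-associated degradation, the route by which misfolded proteins return to the cytosol for destruction. The same site-1 and site-2 proteases release the sterol regulatory factors SREBP. The counts analysed here are per gene: they show neither the splicing of XBP1 nor the cleavage of ATF6.

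Promoters of several of these genes are known for the ER stress element (ERSE), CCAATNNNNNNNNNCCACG, and for the shorter ERSE-II, ATTGGNCCACG, sites at which ATF6 acts together with NF-Y. Exact matches of both motifs, on either strand, were searched in the window from 250 bases before to 50 bases after each RefSeq transcription start (GRCh38.p14). All 10 genes had a window and PDIA4 and XBP1 had 2, which gave 12 windows. An ERSE was found in 5 of the 12 windows, against 27 of 35116 promoter windows of all genes (0.0769%), and an ERSE-II in 2 of the 12, against 19 of all windows (0.0541%). No window held both. Since promoters of several of these genes were known for the elements beforehand, these shares describe the set and are not an independent result. The third motif searched, the UPRE TGACGTGG at which XBP1 acts, was in 0 of the 12 windows and in 0.729% of all windows.

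Of the 6 windows printed here, HSPA5, HSP90B1 and HERPUD1 hold a matched element and their transcripts rose in HEC-1A, CALR and the first start of XBP1 hold an ERSE while the transcript did not pass the test, and DNAJB9, the member with the largest fold change, holds neither element. Each is read 5′ to 3′ along the transcribed strand, and capitals mark the fixed letters of an ERSE and the whole of an ERSE-II, where an ERSE on the opposite strand reads CGTGG and then ATTGG. The windows are chr9:125241294-125241593 on the minus strand for HSPA5, chr12:103930160-103930459 on the plus strand for HSP90B1 and chr16:56931892-56932191 on the plus strand for HERPUD1. Those of the others are chr19:12938359-12938658 on the plus strand for CALR, chr22:28800520-28800819 on the minus strand for XBP1 and chr7:108569624-108569923 on the plus strand for DNAJB9.
HSPA5: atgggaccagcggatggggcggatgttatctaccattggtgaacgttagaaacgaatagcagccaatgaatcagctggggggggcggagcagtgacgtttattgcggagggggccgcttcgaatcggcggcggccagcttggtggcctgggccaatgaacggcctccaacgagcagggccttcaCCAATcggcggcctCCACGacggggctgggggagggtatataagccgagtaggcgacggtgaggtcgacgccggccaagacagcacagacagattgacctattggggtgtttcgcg
HSP90B1: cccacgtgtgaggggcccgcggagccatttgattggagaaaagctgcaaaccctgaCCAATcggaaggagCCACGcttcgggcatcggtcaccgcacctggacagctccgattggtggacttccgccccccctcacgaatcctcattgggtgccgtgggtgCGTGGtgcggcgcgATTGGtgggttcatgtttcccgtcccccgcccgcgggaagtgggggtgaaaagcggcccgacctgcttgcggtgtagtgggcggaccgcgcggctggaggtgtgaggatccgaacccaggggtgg
HERPUD1: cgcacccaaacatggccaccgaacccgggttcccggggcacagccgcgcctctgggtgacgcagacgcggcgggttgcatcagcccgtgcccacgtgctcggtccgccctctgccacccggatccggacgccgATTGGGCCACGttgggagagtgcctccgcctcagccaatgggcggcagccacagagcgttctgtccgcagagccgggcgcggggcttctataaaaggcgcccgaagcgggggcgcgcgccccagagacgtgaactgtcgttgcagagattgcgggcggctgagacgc
CALR: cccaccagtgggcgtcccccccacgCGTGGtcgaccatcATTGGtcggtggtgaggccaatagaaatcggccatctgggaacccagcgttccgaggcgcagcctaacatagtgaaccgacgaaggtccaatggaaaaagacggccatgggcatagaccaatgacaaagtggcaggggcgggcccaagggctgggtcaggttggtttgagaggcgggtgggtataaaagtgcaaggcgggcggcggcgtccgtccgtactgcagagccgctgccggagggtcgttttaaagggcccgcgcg
XBP1: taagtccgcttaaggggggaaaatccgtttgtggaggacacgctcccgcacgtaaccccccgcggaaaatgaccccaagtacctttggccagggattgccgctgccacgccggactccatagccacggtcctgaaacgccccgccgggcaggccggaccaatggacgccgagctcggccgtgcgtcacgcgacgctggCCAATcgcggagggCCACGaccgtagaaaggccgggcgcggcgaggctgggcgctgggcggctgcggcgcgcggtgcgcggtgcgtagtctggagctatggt
DNAJB9: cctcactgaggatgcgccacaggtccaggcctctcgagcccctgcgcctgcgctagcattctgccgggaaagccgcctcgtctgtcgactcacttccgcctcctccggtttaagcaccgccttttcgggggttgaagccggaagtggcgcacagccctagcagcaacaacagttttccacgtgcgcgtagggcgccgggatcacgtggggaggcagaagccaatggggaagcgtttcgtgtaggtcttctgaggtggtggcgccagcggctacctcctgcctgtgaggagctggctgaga

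The exact ERSE of HSPA5 lay from position -66 to -48 relative to the start, and that of XBP1 from -52 to -34, both on the transcribed strand. HSP90B1 held an ERSE on each strand, at -194 to -176 and, reversed, at -89 to -71. The ERSE of CRELD2, at -80 to -62, and that of CALR, at -225 to -207, were reversed, and CRELD2 lies head to head with ALG12. HERPUD1 held an ERSE-II at -117 to -107 and SDF2L1 a reversed one at -188 to -178. DNAJB9, PDIA4 and ATF6 had no exact match in these windows. The parts of the motif are common by themselves: CCACG was in 11 of the 12 windows and in 38.1% of all windows, and CCAAT in 10 of the 12 and in 34.6% of all. Elements with a mismatch were not searched, so a window may hold more elements than the exact ones given here. A match is a description of the sequence, and binding was not measured.

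**Figure D1:**
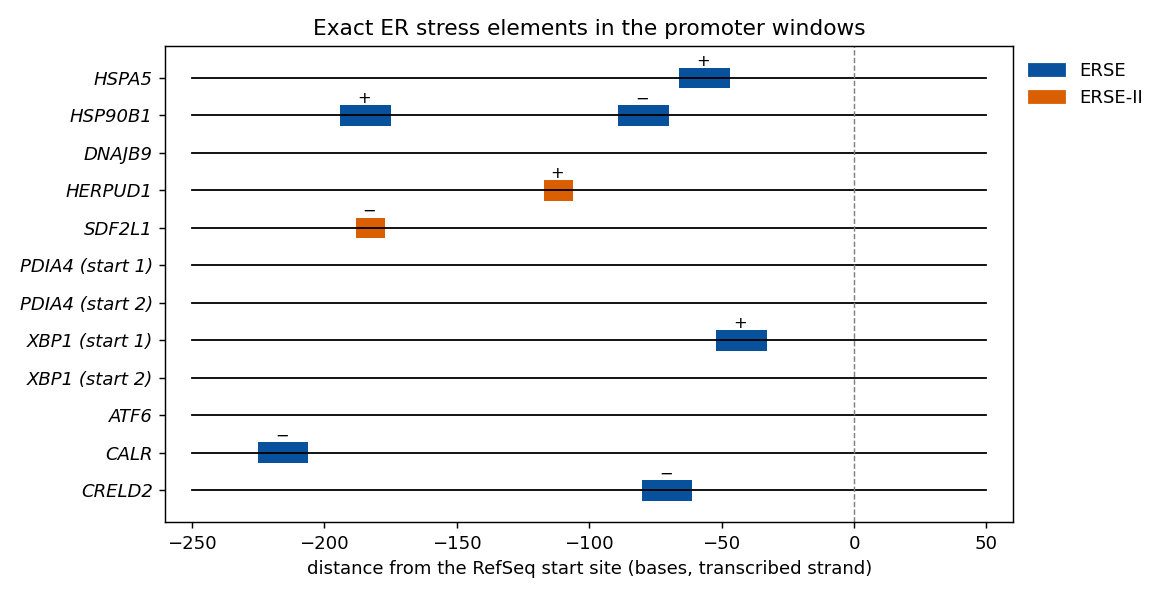
Exact ERSE (blue) and ERSE-II (orange) matches in the 12 RefSeq promoter windows of the 10 genes, plotted by distance in bases from the start site along the transcribed strand, with + and − for the strand of the match. The 8 matches fall in 7 windows, and HSP90B1 is the only one of the 12 windows with 2 matches.

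Total counts per library ranged from 7168542 to 15178276. The level of a transcript is in CPM, its count relative to the library's total after edgeR's TMM scaling of the 12 libraries, with the mean ± SD of the 3 libraries of a group. The 8 epithelial markers summed to 1790 to 2645 CPM in HEC-1A libraries and to 223 to 394 CPM in T-HESC, where EPCAM, CDH1 and ESRP1 were under 1 CPM and 3 of the 8 had a mean of at least 10 CPM. The 8 stromal markers summed to 14.1 to 20.0 CPM in HEC-1A and to 13230 to 27440 CPM in T-HESC, and all 8 had a mean of at least 10 CPM in T-HESC and none in HEC-1A. In T-HESC, AG-205 replicate 1 stood apart: on the first principal component (51.0% of the variance) it scored 94.8 and the other 5 T-HESC libraries -41.8 to 3.35. The biological coefficient of variation was 10.1% between HEC-1A libraries of a group and 33.6% between T-HESC libraries, and a log2 fold change had a median standard error (SE) of 0.13 in the first line and 0.33 in the second.

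All 10 transcripts were measured well above the floor in both lines. The lowest counts, 94 to 578, were those of DNAJB9 and the highest, up to 20280, those of CALR. Divided by the length of the annotated exons, the most abundant in HEC-1A with DMSO was CALR, the calcium-binding lectin chaperone, at 272 ± 9.78 CPM per kb. PDIA4, a protein disulfide isomerase, followed at 92.1 ± 3.67 CPM per kb and HSPA5 at 87.1 ± 3.31, a pair within about their spread of each other. SDF2L1 was at 60.2 ± 6.38, XBP1 at 49.9 ± 3.43 and HSP90B1, the ER member of the HSP90 family, at 45.0 ± 2.31 CPM per kb. HERPUD1 at 14.0 ± 0.818 and CRELD2 at 13.9 ± 1.38 CPM per kb could not be ordered, and ATF6 at 5.26 ± 0.145 and DNAJB9 at 3.62 ± 0.271 were the lowest of the 10. In T-HESC with DMSO the order was similar: CALR led at 544 ± 36.4 CPM per kb, PDIA4 at 134.5 ± 4.57 and HSPA5 at 132 ± 9.04 could not be ordered, and HSP90B1 followed at 85.0 ± 6.04. The lowest there were DNAJB9 at 8.67 ± 1.98 and ATF6 at 6.26 ± 0.712 CPM per kb. Lengths came from all annotated exons together, which for HSPA5 cover the whole gene, so the per-kb level of a gene with retained-intron or long annotated forms is understated. They came to 13092 bases for HSP90B1 and 14263 for ATF6. In CPM, HSP90B1 was at 589 ± 30.2 in HEC-1A with DMSO, above XBP1 at 151 ± 10.4 and SDF2L1 at 63.8 ± 6.755. The per-kb order of such genes in either line thus depends on the lengths used.

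With DMSO, the question was how the levels differ between the lines, before any AG-205. Relative to HEC-1A, 6 of the 10 transcripts were higher in T-HESC and 2 were lower at an adjusted p under 0.05 (edgeR quasi-likelihood test, Benjamini-Hochberg over 14789 genes), where 36.1% of all genes tested were higher and 36.0% lower. Most genes thus differed between the lines, and the members' counts are read against those shares. CALR was at 795, 743 and 753 CPM in the HEC-1A libraries and at 1527, 1423 and 1627 CPM in the T-HESC libraries, a 1.98-fold difference with no overlap (log2 0.99, SE 0.09, adjusted p = 1.97e-05). HSP90B1 was 1.87-fold higher in T-HESC (log2 0.91, SE 0.10, adjusted p = 3.84e-05), HSPA5 1.51-fold (log2 0.59, SE 0.09, adjusted p = 0.000398), CRELD2 1.49-fold and PDIA4 1.45-fold. DNAJB9, a BiP co-chaperone of the J-domain family, had the largest ratio of the 10, 2.38-fold (log2 1.25, SE 0.19, adjusted p = 0.00034), from 9.18 ± 0.688 CPM in HEC-1A to 22.0 ± 5.04 CPM in T-HESC. XBP1 was lower in T-HESC, with 110.0, 120.0 and 91.4 CPM against 162, 142 and 149 CPM in HEC-1A (log2 -0.51, SE 0.12, adjusted p = 0.00409), and so was SDF2L1, a component of BiP complexes (log2 -0.42, SE 0.12, adjusted p = 0.0134). HERPUD1 (log2 0.14, SE 0.10, adjusted p = 0.221) and ATF6 (log2 0.24, SE 0.10, adjusted p = 0.0672) did not pass. Line, patient of origin and culture history cannot be told apart in this comparison, and SDF2L1 did not pass without HEC-1A DMSO replicate 1 (adjusted p = 0.0604) or without T-HESC DMSO replicate 2 (adjusted p = 0.0558).

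**Figure D2:**
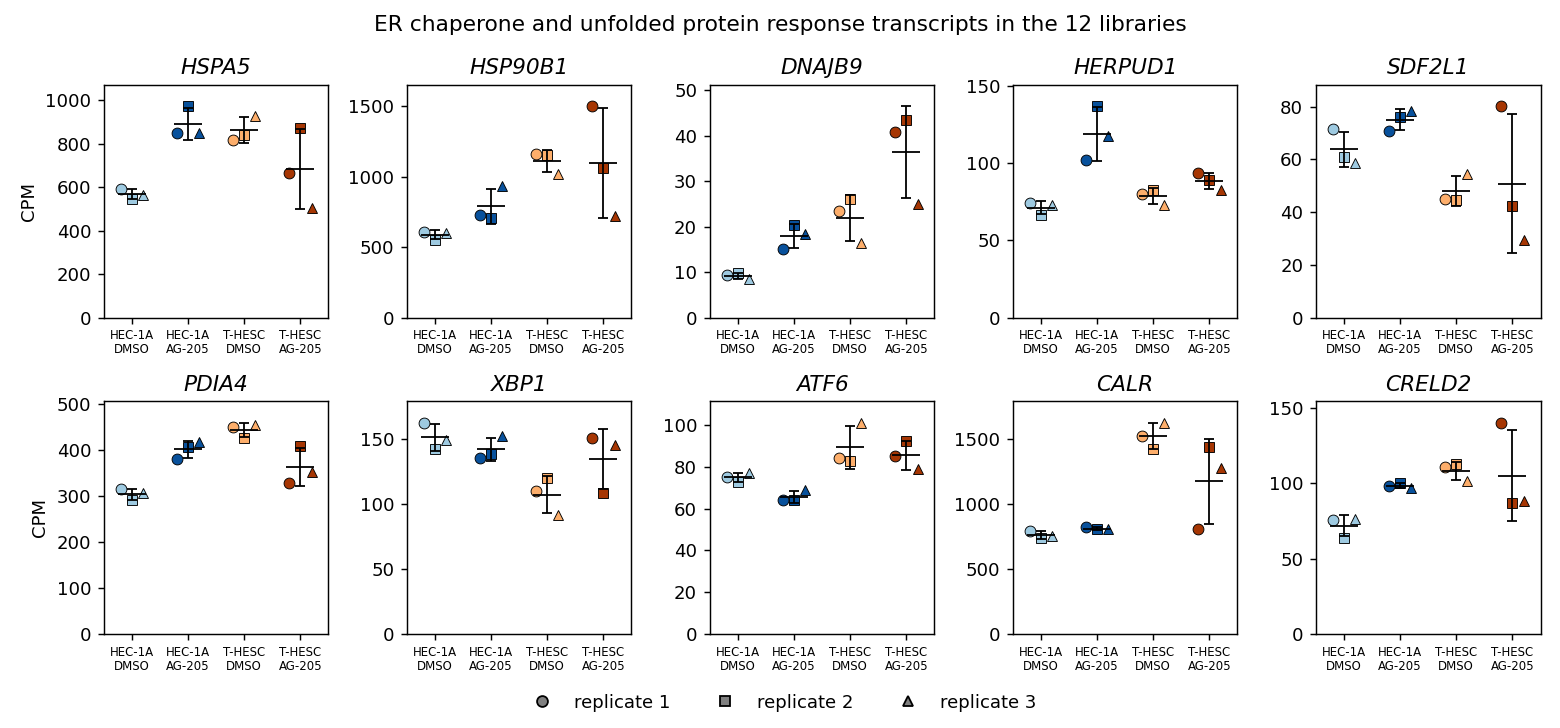
Levels of the 10 transcripts in CPM (vertical axes, each from 0) in the 3 libraries of each group, with symbols for the replicate number and a bar and whiskers for the mean ± SD. In HEC-1A the AG-205 libraries of HSPA5, HSP90B1, DNAJB9, HERPUD1, PDIA4 and CRELD2 lie above all DMSO libraries, as do those of CALR, which did not pass the test. In T-HESC the AG-205 libraries of most transcripts are spread over a wide range.

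In HEC-1A, 6 of the 10 transcripts rose with AG-205: DNAJB9, HERPUD1, HSPA5, CRELD2, HSP90B1 and PDIA4, by 1.32-fold to 1.94-fold. SDF2L1, CALR, XBP1 and ATF6 did not pass the test, and 0 of the 10 passed as lower by edgeR or by DESeq2, with ATF6 the only one of them lower at an unadjusted p under 0.05. The comparison asks what AG-205 did to the epithelial line, with edgeR's quasi-likelihood test of its 6 libraries and Benjamini-Hochberg adjustment over 14122 genes. Of all genes tested, 7.35% (1038) passed as higher and 4.28% (605) as lower, against 782 and 706 by DESeq2. The median log2 fold change was 0.41 over the 10 and 0.006 over all genes tested. The changes were moderate: 0 of the 10 exceeded a log2 fold change of 1, which 2.58% of all genes did with an adjusted p under 0.05 and in the higher direction. AG-205 and DMSO libraries did not overlap for 7 of the 10 in the higher direction, the 6 that rose and CALR, against 16.4% of all genes. Those of ATF6 did not overlap in the lower direction, for which the share of all genes was not counted.

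Among the chaperones of the ER lumen, HSPA5 and HSP90B1 rose. HSPA5 (ENSG00000044574, GRCh38 chr9:125234853-125241382), the HSP70 of the ER and the repressor of its stress sensors, was at 591, 548 and 565 CPM with DMSO and at 848, 974 and 852 CPM with AG-205. All 3 AG-205 libraries were above all 3 DMSO libraries, by a wide margin against the spread within groups, and the change was 1.57-fold (log2 0.65, SE 0.10, 95% interval 0.44 to 0.86, adjusted p = 0.000929). HSP90B1 (ENSG00000166598), which encodes GRP94, went from 611, 555 and 601 CPM to 729, 704 and 933 CPM. Its groups did not overlap, replicate 3 with AG-205 stood well above the other 2, and the change was 1.34-fold (log2 0.42, SE 0.12, 95% interval 0.17 to 0.68, adjusted p = 0.0371). Without AG-205 replicate 3 the change was log2 0.28 (adjusted p = 0.00943), in a fit where 2092 of all genes passed as higher, against 1038 in the main test. Exons of HSP90B1 overlap the opposite-strand gene UQCC6 over 6.15% of their length, where the strandedness of the counting is not known, and UQCC6 had at most 199 counts in a library.

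CALR and SDF2L1, the other members that act as chaperones or in chaperone complexes, changed less. CALR (ENSG00000179218), the abundant lectin chaperone, was at 795, 743 and 753 CPM with DMSO and at 823, 806 and 808 CPM with AG-205. Its AG-205 libraries were all above its DMSO libraries, yet the difference was small against the error of the test (log2 0.09, SE 0.09, 95% interval -0.10 to 0.28, adjusted p = 0.551). SDF2L1 (ENSG00000128228) was at 71.5, 61.0 and 58.8 CPM and at 70.6, 76.1 and 78.3 CPM, with AG-205 replicate 1 inside the DMSO range, and did not pass (log2 0.23, SE 0.10, 95% interval 0.01 to 0.45, adjusted p = 0.163).

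DNAJB9 (ENSG00000128590), the J-domain co-chaperone also called ERdj4, had the largest fold change of the 10. It was at 9.29, 9.80 and 8.44 CPM with DMSO and at 15.0, 20.3 and 18.3 CPM with AG-205, each AG-205 library being above each DMSO library. The change was 1.94-fold (log2 0.96, SE 0.15, 95% interval 0.64 to 1.27, adjusted p = 0.00115) at a level that was the lowest of the 10. PDIA4 (ENSG00000155660), which forms and rearranges disulfide bonds in client proteins, was at 314, 290 and 307 CPM and rose to 381, 406 and 416 CPM, with no overlap and little spread in either group. Its change was 1.32-fold (log2 0.40, SE 0.09, 95% interval 0.21 to 0.60, adjusted p = 0.0127). CRELD2 (ENSG00000184164), an ER-resident and secreted protein induced by ER stress, went from 75.9, 63.8 and 76.2 CPM to 98.4, 99.9 and 96.8 CPM. The 3 AG-205 libraries lay within a narrow range above all DMSO libraries, and the change was 1.37-fold (log2 0.45, SE 0.10, 95% interval 0.24 to 0.66, adjusted p = 0.00989). ALG12 shares 3.25% of the exon length of CRELD2 on the opposite strand and had up to 517 counts in a library.

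HERPUD1 (ENSG00000051108), an ER membrane protein that assists ER-associated degradation, was at 73.9, 66.2 and 72.8 CPM with DMSO and at 102, 137 and 118 CPM with AG-205. The groups were clearly separate, and HERPUD1 rose 1.67-fold (log2 0.74, SE 0.11, 95% interval 0.50 to 0.99, adjusted p = 0.00119). The transcription factors of the response moved little at the level of total mRNA. XBP1 (ENSG00000100219) was at 162, 142 and 149 CPM with DMSO and at 135, 138 and 152 CPM with AG-205, overlapping groups whose log2 difference was -0.09 (SE 0.09, 95% interval -0.30 to 0.11, adjusted p = 0.585). ATF6 (ENSG00000118217) was at 75.3, 72.8 and 76.9 CPM and at 64.0, 64.0 and 68.8 CPM. All its AG-205 libraries were below all its DMSO libraries, but the difference did not pass (log2 -0.19, SE 0.09, 95% interval -0.38 to -0.001, adjusted p = 0.188). It passed only without AG-205 replicate 3 (log2 -0.24, adjusted p = 0.0244), where 1922 of all genes passed as lower, against 605 in the main test.

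HSPA5, DNAJB9 and HERPUD1 passed whichever single HEC-1A library was left out, with adjusted p up to 0.0151, 0.0115 and 0.0128. HSP90B1 did not pass without DMSO replicate 1 (adjusted p = 0.102), 2 (0.172) or 3 (0.140), PDIA4 without DMSO replicate 2 (0.0984) or 3 (0.0867), nor CRELD2 without DMSO replicate 2 (0.0817), and with all 12 libraries in 1 fit, which takes 1 estimate of the spread for both lines, HERPUD1 was the only one of the 10 to pass (adjusted p = 0.0332).

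In T-HESC, 0 of the 10 transcripts passed the same test of AG-205 against DMSO over 13753 genes, by edgeR or by DESeq2. Only 0.0800% of all genes passed in either direction, and 740 genes, among them DNAJB9 of the 10, had an unadjusted p under 0.05. The median log2 fold change was -0.04 over the 10 and 0.02 over all genes tested, and 4 of the 10 had a positive value. Without AG-205 replicate 1, which stands apart, 0 of the 10 passed as well, with 69 genes higher and 3 lower in all.

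The spread of the AG-205 libraries was wide for most of the 10 in T-HESC, and it did not run the same way for all of them. HSP90B1 was at 1164, 1151 and 1021 CPM with DMSO and at 1501, 1063 and 722 CPM with AG-205. SDF2L1 was at 45.2, 44.6 and 54.6 CPM and at 80.2, 42.5 and 29.6 CPM, and CRELD2 at 110.5, 113 and 101 CPM and at 140.1, 87.1 and 88.1 CPM. For these 3, AG-205 replicate 1 was above every DMSO library and the other AG-205 libraries were below most or all of them. CALR was at 1527, 1423 and 1627 CPM with DMSO and at 810, 1442 and 1276 CPM with AG-205, and here replicate 1 was the lowest library. The coefficient of variation over the AG-205 libraries was 51.8% for SDF2L1, 35.6% for HSP90B1, 28.8% for CRELD2, 27.9% for CALR and 27.0% for HSPA5, against 1.09% to 15.9% over the groups of HEC-1A for all 10. Without AG-205 replicate 1 the log2 fold change of SDF2L1 went from 0.07 to -0.44, that of HSP90B1 from -0.03 to -0.34, that of CRELD2 from -0.05 to -0.33 and that of CALR from -0.39 to -0.19.

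HSPA5 in T-HESC was at 820, 841 and 931 CPM with DMSO and at 668, 874 and 507 CPM with AG-205. The groups overlapped through AG-205 replicate 2, and the log2 fold change was -0.35 with an interval that reached both signs (SE 0.27, 95% interval -0.97 to 0.27, adjusted p = 0.993). PDIA4 was at 450, 426 and 454 CPM and at 328, 409 and 351 CPM. It was the only one of the 10 whose groups did not overlap, in the lower direction, in which 4.81% of all genes did not overlap, and it did not pass the test (log2 -0.31, SE 0.21, 95% interval -0.80 to 0.19, adjusted p = 0.993). In the higher direction 0 of the 10 lacked overlap, against 6.23% of all genes.

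DNAJB9 had the largest log2 fold change of the 10 in T-HESC too. It was at 23.5, 26.1 and 16.4 CPM with DMSO and at 40.9, 43.5 and 24.9 CPM with AG-205. AG-205 replicate 3 lay within the DMSO range and the other 2 above it, with a log2 fold change of 0.71 (SE 0.30, 95% interval 0.01 to 1.41, unadjusted p = 0.0468, adjusted p = 0.917). HERPUD1 was at 80.1, 82.8 and 73.1 CPM and at 93.3, 89.2 and 82.7 CPM, where only AG-205 replicate 3 was not above all DMSO libraries, with a coefficient of variation of 6.05% with AG-205 that was the smallest of the 10 in that group (log2 0.15, SE 0.20, 95% interval -0.30 to 0.61, adjusted p = 0.993). XBP1 was at 110.0, 120.0 and 91.4 CPM and at 150.2, 108 and 145 CPM (log2 0.32, SE 0.24, 95% interval -0.23 to 0.86). ATF6 was at 83.9, 82.9 and 101 CPM and at 85.2, 92.3 and 78.7 CPM (log2 -0.08, SE 0.20, 95% interval -0.54 to 0.39). The intervals of HSPA5, HSP90B1, SDF2L1, PDIA4, CALR and CRELD2 in T-HESC held both falls and rises, and a value that misses the threshold does not show that a transcript stayed the same.

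**Figure D3:**
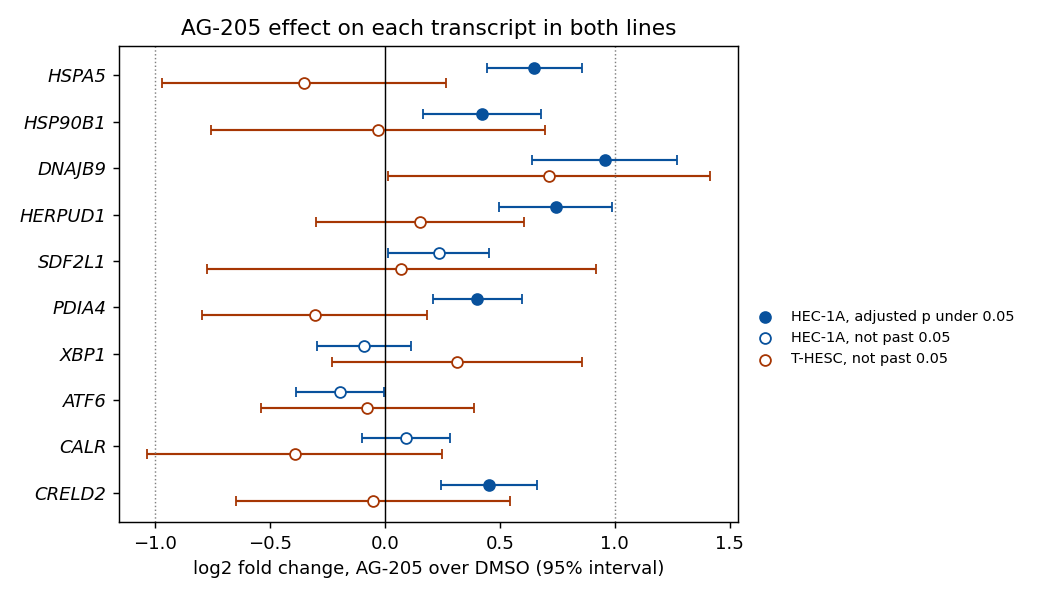
The log2 fold change of AG-205 over DMSO for each of the 10 transcripts in HEC-1A (blue) and T-HESC (brown), with 95% intervals from edgeR, filled where the adjusted p is under 0.05 and with dotted lines at -1 and 1. In HEC-1A 6 points are filled and in T-HESC none, where the intervals are wider and 9 of 10 include 0.

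Whether the effect of AG-205 differed between the lines was tested in 1 fit of all 12 libraries, over 16132 genes, as the log2 fold change in T-HESC minus that in HEC-1A. By edgeR 0 of the 10 passed, where 0.130% of all genes passed with a lower effect in T-HESC. An unadjusted p under 0.05 was found for 3 of the 10 and for 1025 of the 16132 genes. HSPA5 differed by -0.99 (SE 0.27, 95% interval -1.57 to -0.40, unadjusted p = 0.00309, adjusted p = 0.340), PDIA4 by -0.69 (SE 0.20, 95% interval -1.12 to -0.26, unadjusted p = 0.00425, adjusted p = 0.397) and HERPUD1 by -0.57 (SE 0.21, 95% interval -1.02 to -0.13, unadjusted p = 0.0161, adjusted p = 0.611). DESeq2 called the first 2 of these, with a log2 difference of -1.0 for HSPA5 (adjusted p = 0.0273) and of -0.70 for PDIA4 (adjusted p = 0.00463). The call thus rests on the test used, and DESeq2 also called more of all genes than edgeR did, as given in the last section. The difference was negative for 8 of the 10, all but XBP1 (0.42, adjusted p = 0.879) and ATF6 (0.13, adjusted p = 1), with a median of -0.45 against 0.02 over all genes. For DNAJB9 it was -0.23 (SE 0.34, 95% interval -0.96 to 0.50) with 0 well inside, so the data do not show whether its response differed between the lines.

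The other genes of the pathway were taken from lists chosen by function. In HEC-1A, 7.35% of all genes tested passed as higher and 4.28% as lower, and 14.6% were higher and 11.5% lower at an unadjusted p under 0.05, with a median log2 fold change of 0.006. In T-HESC 0.0800% of all genes tested passed as higher, and 3.58% were higher and 1.80% lower at an unadjusted p under 0.05. Each list is set beside the shares of its line. Of 25 further chaperones, co-chaperones and folding enzymes of the ER lumen, 4 rose in HEC-1A and 0 fell by edgeR, with a median log2 fold change of 0.15. The 4 are 16% of the list, against 7.35% of all genes, and at an unadjusted p under 0.05, 9 (36.0%) were higher and 1 lower. MANF, an ER-resident factor that binds BiP and is secreted under stress, rose from 60.01 ± 2.87 to 97.7 ± 22.9 CPM (log2 0.70, edgeR adjusted p = 0.00806). CRELD1, the paralogue of CRELD2, rose as well (log2 0.52, adjusted p = 0.00564), and so did DNAJC3, a BiP co-chaperone (log2 0.39, adjusted p = 0.0244), and ERO1A, the oxidase that recharges disulfide isomerases (log2 0.37, adjusted p = 0.0225). Of the 25, 0 passed in T-HESC, 0 had an unadjusted p under 0.05, and the median was -0.04. The smallest p-values there belonged to ERO1B (log2 0.64, SE 0.31) and DNAJC1 (log2 0.47, SE 0.29), both with adjusted p = 0.993.

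Of 18 genes of ER-associated degradation, 17 were tested in HEC-1A, since DERL3 had too few counts, and 3 rose (17.6%, against 7.35% of all genes) while 0 fell, with a median of 0.03 and with 8 higher and 1 lower at an unadjusted p under 0.05. These were SELENOS, a membrane selenoprotein that helps recruit the extraction machinery (log2 0.60, adjusted p = 0.00233), EDEM1, which marks misfolded glycoproteins by trimming mannose (log2 0.42, adjusted p = 0.0227), and ERLEC1, an ER lectin (log2 0.37, adjusted p = 0.0431). None of the 17 did so in T-HESC, with a median of 0.11, and the smallest p-values were those of EDEM1, the only one of them under 0.05 before adjustment (log2 0.63, SE 0.26, adjusted p = 0.880), and SELENOS (log2 0.56, SE 0.30, adjusted p = 0.993).

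Among 22 genes of translocation into the ER and vesicle transport, 2 rose in HEC-1A, 0 fell and the median was 0.12, with 3 higher and 0 lower at an unadjusted p under 0.05. Both shares, 9.09% and 13.6%, were near those of all genes, 7.35% and 14.6%. SEC24D, a cargo adaptor of the COPII coat, went from 17.1 ± 1.36 to 30.9 ± 5.11 CPM (log2 0.87, adjusted p = 0.00119), and KDELR3, a receptor that returns ER proteins from the Golgi, rose less (log2 0.37, adjusted p = 0.0452). Of the 22, 0 passed in T-HESC, 0 had an unadjusted p under 0.05 and the median was 0.07, or -0.10 without AG-205 replicate 1. The smallest p-values belonged to SEC23B (log2 0.36, SE 0.27) and SSR4 (log2 0.45, SE 0.34). A list of 14 sensors, processing proteases and factors also held the related genes BBC3, BAK1, TMBIM6, WFS1 and RTCB. Of the 14, 12 were tested in HEC-1A, without CREB3L1 and BHLHA15, and 2 rose with 0 falling, with a median of 0.05 and no other at an unadjusted p under 0.05. These 2 were 16.7% of the list, against 7.35% of all genes by the test and 14.6% before adjustment. EIF2AK3, which encodes PERK, rose from 12.3 ± 1.18 to 22.4 ± 4.06 CPM (log2 0.88, adjusted p = 0.00208), and BBC3, a pro-apoptotic BH3-only gene that other stresses also induce, rose too (log2 0.92, adjusted p = 0.00133). Of the 13 tested in T-HESC, 0 passed, with a median of -0.06. ERN1, which encodes IRE1, had a log2 fold change of 0.81 there (SE 0.29, unadjusted p = 0.0242, adjusted p = 0.703) and EIF2AK3 of 0.50 (SE 0.24, adjusted p = 0.981).

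By DESeq2 the numbers that rose in HEC-1A were 4 for folding, 2 for degradation, 1 for transport and 2 for the sensors and factors, and 0 fell in these 4 lists. Of all genes, 782 rose and 706 fell by DESeq2. Leaving out single HEC-1A libraries gave 2 to 7, 1 to 5, 1 to 3 and 2 to 3 in the same order, the highest each time without AG-205 replicate 3, the shallowest library. Over all genes the same fits gave 536 to 2092 higher, against 1038 in the main test, and the 2092 were also without AG-205 replicate 3. Without that replicate 1 gene of degradation and 1 of transport passed as lower, as did 1922 of all genes, against 605 in the main test. The median of degradation was then 0.13 and that of transport -0.03. With all 12 libraries in 1 fit 0 passed in any of the 4, where 146 of all genes were higher and 8 lower. In T-HESC 0 passed in these lists by DESeq2 or without AG-205 replicate 1.

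For contrast, 25 genes of the ATF4 arm and 12 heat shock genes, of which HSPD1 and HSPE1 act in mitochondria and the others mainly in the cytosol, were counted in the same way. Of the ATF4 arm, 24 were tested in HEC-1A, without PHGDH, and 5 rose (20.8%, against 7.35% of all genes) and 1 fell (4.17%, against 4.28%), with a median of 0.02. Leaving out single libraries gave 4 higher and 0 to 1 lower, or 6 and 3 without AG-205 replicate 3, and the fit of all 12 libraries gave 1 and 0. Over all genes the fit without AG-205 replicate 3 gave 2092 higher and 1922 lower, and that of all 12 libraries 146 and 8. PPP1R15A, the phosphatase subunit that reverses eIF2α phosphorylation, rose by 1.11 on the log2 scale (adjusted p = 2.21e-05), ATF3 by 1.37, DDIT3, which encodes CHOP, by 0.74 (adjusted p = 0.000748) and NUPR1 by 0.67. Of the 23 tested in T-HESC, 0 passed, with a median of 0.30. At an unadjusted p under 0.05, 6 (26.1%) were higher with AG-205 and 0 lower, where 3.58% of all genes were higher and 1.80% lower. These 6 were led by DDIT3 (log2 1.38, SE 0.30, adjusted p = 0.313) and TRIB3 (log2 1.12, SE 0.31, adjusted p = 0.492). DESeq2 called 1 of the list higher, the fit of all 12 libraries 3 and that without a filter on low counts 4. Over all genes these settings called 104, 175 and 145 higher in T-HESC, against 11 in the main test. Of the heat shock genes 3 rose (25.0%, against 7.35% of all genes) and 1 fell (8.33%, against 4.28%) in HEC-1A, with a median of -0.07. Without single libraries 1 was higher and 0 lower, or 5 and 4 without AG-205 replicate 3, and with all 12 libraries in 1 fit 0 passed. HSPA1B, whose reads its near-identical copy HSPA1A may share, rose (log2 0.82, adjusted p = 0.000929), as did DNAJB1 (log2 0.35, adjusted p = 0.0419) and HSPB1 (log2 0.31, adjusted p = 0.0455), while HSPD1, a mitochondrial chaperonin, fell (log2 -0.44, adjusted p = 0.0200). In T-HESC 0 of 12 passed by edgeR or DESeq2, 0 had an unadjusted p under 0.05 and the median was 0.02, and the smallest p-values were those of HSPE1 (log2 0.90, SE 0.57) and HSPH1 (log2 0.40, SE 0.31).

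**Figure D4:**
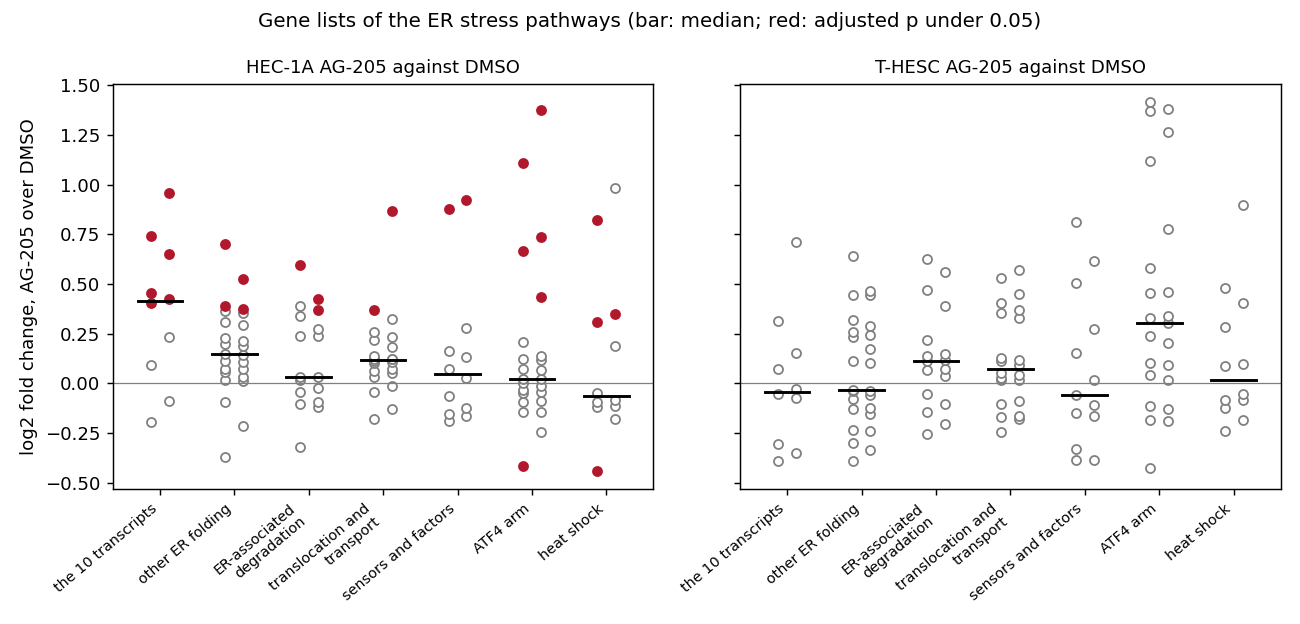
The log2 fold change of AG-205 over DMSO (vertical axis) for each tested gene of the 10 transcripts and of the 6 other lists, in HEC-1A (left) and T-HESC (right), with a bar at the median and red points at an adjusted p under 0.05. In HEC-1A the 10 have the highest median, 0.41, and in T-HESC no point is red and the ATF4 arm has the highest median, 0.30.

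Sequence elements were set beside the changes across genes as a description. In all, 22 counted genes had an exact ERSE in their promoter window and 16 of them were tested in HEC-1A, of which 4 rose, with a median log2 fold change of 0.18. The 11 tested genes outside the 10 had a median of 0.13, and 1 of them rose, where 7.35% of all genes did and the median of all was 0.006. The 4 were HSPA5, HSP90B1, CRELD2 and TMEM120A (log2 0.38, adjusted p = 0.0216), the last being the 1 outside the 10. Among the members with an ERSE, CALR and XBP1 did not pass, and DNAJB9 and PDIA4 rose without an exact element in these windows. Of 14 tested genes with an ERSE-II, 1 rose, HERPUD1, and 1 fell, RUVBL2. The 12 of them outside the 10 had a median of 0.04, and 0 of these rose. In T-HESC the median of the 16 genes with an ERSE was -0.04, and that of the 11 outside the 10 was 0.05.

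The genes whose pattern was most like that of HSPA5 were ranked by Pearson's r of log2 CPM, centred on the mean of each line, over the 12 libraries and 12008 genes tested in both lines. The 5 highest were GULP1 (r = 0.972), GSPT2 (0.914), FKBP14 (0.907), TMEM106B (0.906) and ATG4A (0.905), and FKBP14 is a prolyl isomerase of the ER. PDIA4 came next (0.896, rank 6). The others of the 10 followed at a distance, with HERPUD1 at 0.640 (rank 198), HSP90B1 at 0.586, CRELD2 at 0.535, CALR at 0.447, DNAJB9 at 0.440 and SDF2L1 at 0.418. ATF6 had an r of -0.09 and XBP1 of -0.66, the latter near the bottom of the ranking at 11827. These coefficients share the same 12 libraries and the treatment difference of HEC-1A and are given without a test.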

How the data were processed

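The 12 libraries were grouped by cell line and treatment from their labels. The values the authors deposited are raw counts of reads for each gene, not normalized. Per the submitters' processing notes and the methods, reads were trimmed with Trimmomatic 0.38, aligned to GRCh38 with HISAT2 2.1.0 and counted with featureCounts of Subread 2.0.0 on Ensembl release 94. Strandedness and the treatment of multiply matching reads are not given in the sources used here, so overlapping genes, paralogues and the pseudogenes HSPA5P1 and XBP1P1 carry that uncertainty.

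Counts were analysed in R 4.3.3 with edgeR 4.0.16: TMM scaling, filterByExpr, the quasi-likelihood test with p adjusted by Benjamini-Hochberg across the genes tested, called at an adjusted p under 0.05. SEs were derived from the F values. Exact permutation of 3 against 3 libraries cannot give a p under 0.1, so genes were tested with these models. The procedure was checked on simulated data, with the same spread for every comparison and with planted changes larger than those of the members. That spread was below the one of T-HESC, so the check does not show the power in T-HESC or for changes as small as these. Totals of 7168542 to 15178276 counts put every member above the floor of 3 counts.

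The members and lists were chosen with earlier results of these data known. All members were named. Of each list, up to 4 genes past the threshold were named by smallest p, or the 2 smallest where none passed. TMEM120A and RUVBL2 were chosen after their values were seen. Gene models came from GENCODE 44, where 58207 of 58735 identifiers had a symbol, and promoters from RefSeq GRCh38.p14. Alternatives were DESeq2 1.42.0, other scalings, no filter, stricter thresholds, the replicate number as a block, a fit of all libraries and leaving out single libraries. Figures were made in Python 3.11.15 (matplotlib 3.10.9).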

Additional observations from a re-analysis of the deposited data

Results flagged for a closer look

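For PDIA4 the AG-205 and DMSO libraries did not overlap in either line, and in opposite directions. The share of all genes with this pattern was not counted. Of all genes, 16.4% were higher without overlap in HEC-1A and 4.81% lower without overlap in T-HESC. Every HEC-1A library with AG-205 was above every HEC-1A library with DMSO, and every T-HESC library with AG-205 was below every T-HESC library with DMSO, where the change itself did not pass (log2 -0.31, 95% interval -0.80 to 0.19, edgeR adjusted p = 0.993). The log2 fold change in T-HESC minus that in HEC-1A was -0.69 (SE 0.20). It did not pass edgeR's test of the difference (unadjusted p = 0.00425, adjusted p = 0.397) and passed that of DESeq2 (adjusted p = 0.00463). AG-205 replicate 1, the T-HESC library that stands apart, had the lowest PDIA4 level of its group, and without it the difference was -0.62 (edgeR adjusted p = 0.144).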

How the results depend on the processing

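In HEC-1A the 6 transcripts that rose numbered 6 also with DESeq2, with other scalings (RLE, upper quartile), without a filter and with the replicate block, and were 4 at an adjusted p under 0.01, 1 with all 12 libraries in 1 fit, 0 with a log2 fold change limit of 1 and 3 to 6 without single libraries, while 0 to 1 passed as lower. In T-HESC 0 of the 10 passed under each alternative. For the difference between the lines DESeq2 called 2 and the other alternatives 0. Between the lines with DMSO, 6 higher and 2 lower became 1 and 0 with the fold limit and 6 to 7 and 1 to 2 without single libraries, and 1 was lower at an adjusted p under 0.01. Of values that did not pass, leaving out single libraries changed the sign in T-HESC for HSP90B1 (log2 -0.34 to 0.19), SDF2L1 (-0.44 to 0.33), ATF6 (-0.16 to 0.011) and CRELD2 (-0.33 to 0.055), and for the difference of SDF2L1 (-0.65 to 0.12). HERPUD1 between the lines was -0.016 with upper-quartile scaling, which moved the median of all genes from -0.02 to -0.17. The cause was not tested.

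The labels do not say whether a replicate number marks a shared culture. The paper describes 3 independent experiments and paired its RT-qPCR values within an experiment. Deviations of same-numbered AG-205 and DMSO libraries correlated at -0.07 to 0.21 (HEC-1A) and at -0.52 to 0.23 (T-HESC). Those of different numbers correlated at -0.23 to 0.22 and at -0.54 to 0.68, the highest values in each line. The main test did not pair libraries, and a pairing other than by number was not tested. The replicate block turned the T-HESC value of SDF2L1 to -0.054, left 9 genes called in T-HESC in place of 11, and called 0 genes for the difference in place of 7 higher and 21 lower. Over all genes in T-HESC, DESeq2 called 104 higher and 15 lower, no filter 145 and 36, the fit of 12 libraries 175 and 31, and an adjusted p under 0.01 left 0. For the difference, DESeq2 called 35 higher and 65 lower and no filter 54 and 87. In HEC-1A the fit of 12 libraries called 146 higher and 8 lower, and single libraries moved the counts from 536 to 2092 higher and from 142 to 1922 lower. The highest count in each direction came without AG-205 replicate 3. DNAJB9 had the lowest counts of the 10, 94 to 578.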
